A study of Mus musculus with 4 samples.

Results

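The 6 genes Mest, Klf14, Sfrp5, Bmp3, Npr3 and Peg3 were described together as candidate markers of adipose tissue expansion in epididymal adipose tissue of obese mice, and they are 6 of the 24421 genes in the deposited matrices. They were selected on the measured step between the groups, since Mest and its neighbour Klf14 differed between weight-cycled and control mice in these same libraries. Their group difference is therefore given as a description with no test, and tests were run only on genes of other lists. The data came from wild-type (WT) male C57BL/6J mice in 2 groups, with 2 libraries per group. Control mice (Ctrl) began a high-fat diet (HFD) at 10 weeks of age and stayed on it without a break for 14 weeks. Weight-cycled mice (WC1) began HFD at 8 weeks of age, had 8 weeks of it, changed to standard diet for 2 weeks and then returned to HFD for 6 weeks. Both schedules end at 24 weeks of age. The groups shared the total of 14 weeks on HFD and differed in the age at its start as well as in the break, and these cannot be told apart here. No adipocyte size or depot weight was analysed here, so the name of the group rests on what is known of these genes. The labels do not say how many mice stand behind a library, so the spread within a group may be partly technical.

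Mest (mesoderm-specific transcript) encodes an enzyme-like protein of the endoplasmic reticulum and is expressed from the paternal allele, and its RNA in white adipose tissue is known to rise while fat mass expands on a rich diet. Klf14 encodes a single-exon Krüppel-like transcription factor that lies downstream of Mest in the same imprinted region and is expressed from the maternal allele. Peg3, a zinc finger protein, is a paternally expressed gene of another imprinted region. The remaining 3 act in signalling at the cell surface. Sfrp5 is a secreted protein that binds WNT ligands, Bmp3 is a secreted BMP family ligand known to oppose signals of other family members, and Npr3 is the natriuretic peptide clearance receptor, which removes natriuretic peptides from the extracellular space.

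All 6 genes were on the mm10 assembly that the submitters' processing notes name, and their positions come from GENCODE M21 on the same assembly. Mest (ENSMUSG00000051855.15) spans chr6:30723547-30748465 on the plus strand, with 13 exons in its longest coding transcript. Klf14 (ENSMUSG00000073209.4) lies at chr6:30956023-30959078 on the minus strand and has 1 exon. Its annotated start coordinate is 207557 bases past the end of Mest, and 1 protein-coding gene, Tsga13, lies wholly between them. Peg3 (ENSMUSG00000002265.16) spans chr7:6703892-6730431 on the minus strand with 9 exons. Sfrp5 (ENSMUSG00000018822.7) lies at chr19:42197971-42202252 on the minus strand with 3 exons. Bmp3 (ENSMUSG00000029335.5) spans chr5:98854415-98884396 on the plus strand with 3 exons, and Npr3 (ENSMUSG00000022206.7) spans chr15:11839896-11907287 on the minus strand with 8.

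RefSeq promoter windows on GRCm38.p6, each of 300 bases from 250 before to 50 after the annotated start, matched 4 of the 6 genes. Mest, Sfrp5 and Peg3 are shown because they had a larger difference between the groups than Npr3, the other gene with a window, and because promoters rich in CpG dinucleotides carry the allelic methylation of imprinted genes such as Mest and Peg3. Capitals mark CpG dinucleotides, 5′ to 3′ on the strand of the gene. The windows are chr6:30737800-30738099 on the plus strand for Mest, chr19:42202203-42202502 on the minus strand for Sfrp5 and chr7:6730370-6730669 on the minus strand for Peg3.
Mest: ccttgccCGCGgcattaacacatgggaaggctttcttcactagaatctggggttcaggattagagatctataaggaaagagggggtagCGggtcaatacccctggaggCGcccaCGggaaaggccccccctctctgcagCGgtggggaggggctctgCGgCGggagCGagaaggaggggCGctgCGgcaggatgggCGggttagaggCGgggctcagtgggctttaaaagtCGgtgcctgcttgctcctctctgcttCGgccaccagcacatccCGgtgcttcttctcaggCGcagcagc
Sfrp5: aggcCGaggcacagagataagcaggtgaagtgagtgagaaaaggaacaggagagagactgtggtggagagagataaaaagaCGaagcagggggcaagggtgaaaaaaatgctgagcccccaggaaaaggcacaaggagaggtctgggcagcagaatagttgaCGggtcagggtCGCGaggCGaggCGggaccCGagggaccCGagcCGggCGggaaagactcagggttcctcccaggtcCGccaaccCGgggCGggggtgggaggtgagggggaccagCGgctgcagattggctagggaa
Peg3: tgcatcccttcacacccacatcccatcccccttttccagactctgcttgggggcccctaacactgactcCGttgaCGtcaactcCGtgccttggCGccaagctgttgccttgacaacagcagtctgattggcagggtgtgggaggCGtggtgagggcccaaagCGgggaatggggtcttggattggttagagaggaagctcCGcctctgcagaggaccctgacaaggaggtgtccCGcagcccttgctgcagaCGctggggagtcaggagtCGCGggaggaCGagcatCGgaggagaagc
RefSeq windows for Mest numbered 3, and the one shown is the first of an almost coincident pair with 17 CpG each, while the window at the upstream start, chr6:30733256-30733555, held 8 (as many or more in 48.6% of windows). The Mest window shown held 17 CpG, the Sfrp5 window 15 and the Peg3 window 13, beside a median of 7 over 32851 windows of the same length. As many CpG or more were held by 31.4% of all windows for Mest, by 34.6% for Sfrp5 and by 37.9% for Peg3, so none of these windows was rare in this respect. The Npr3 window at chr15:11907322-11907621 on the minus strand held 6 CpG, under the median. The GC box GGGCGG, searched on both strands and itself holding a CpG, occurred once in the Mest window (n = 1) and at 2 places in the Sfrp5 window, and it occurred in 35.7% of all windows. The Peg3 window held 1 cAMP response element, TGACGTCA, which reads the same on both strands and occurred in 1.79% of windows. The sequence TATAAA, which 13.6% of windows held on one strand or the other, was found in none of these genes' windows. These are matches of letters only.

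Gene levels are written as CPM, reads scaled by an adjusted library size, and comparisons between genes use TPM, in which reads are also divided by transcript length. The libraries held 71658062 and 90965297 reads in Ctrl and 61655738 and 61465029 in WC1, and 3 reads corresponded to at most 0.0492 CPM. Differences are of mean log2(CPM + 1), WC1 minus Ctrl, and a scale with this pseudocount understates the change of genes of low level. A gene was tested by limma if 2 or more libraries held it at 0.5 CPM or above, and a gene is called where its Benjamini-Hochberg adjusted p is under 0.05. Of 14106 genes tested, 10.2% were called higher in WC1 and 7.71% lower. All 6 genes described here passed the filter. Leaving out either Ctrl library removed the call of each of the 46 called genes of the 6 gene lists given below, with 2 genes called higher over all genes without Ctrl 1 and 6 without Ctrl 2. Leaving out WC1 1 removed 1 of these 46 calls and leaving out WC1 2 removed 2. In each of these fits the spread came from the 2 libraries of the other group and the lone library was assumed to vary like them, so a call kept there says little about stability.

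Mest was the most abundant of the 6 genes per length in every library. Its level was 265 CPM in Ctrl 1, 316 in Ctrl 2, 785 in WC1 1 and 895 in WC1 2. Both WC1 libraries stood far above both Ctrl libraries, and the gap between the groups was several times the gap within either. The mean rose from 290 ± 36.3 CPM to 840 ± 78.2 CPM (SD, n = 2 each), a ratio of 2.89 that ran from 2.48 to 3.38 over the pairings of single libraries, and the log2 difference was 1.53. Between 18095 and 56364 reads stood behind each value, so counting error was small beside the spread between libraries.

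Klf14, the transcription factor gene near Mest, was the lowest of the 6 genes in both units. It was at 1.30 CPM in Ctrl 1, 1.85 in Ctrl 2, 7.60 in WC1 1 and 9.53 in WC1 2, with 89 reads in the lowest library and 600 in the highest. The groups did not overlap, and every library was far above the 3-read floor. The ratio of means was 5.44, from 4.11 to 7.32 over single libraries, which was the widest ratio of the 6. On the log2(CPM + 1) scale the difference was 1.89, and that value depends on the pseudocount because the gene is so low. With a pseudocount of 0.1 it was 2.38.

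Peg3, the imprinted zinc finger gene, had 8.44 and 7.50 CPM in Ctrl against 34.4 and 36.3 CPM in WC1. The 2 libraries of each group lay close together, and the groups stood wide apart. The mean went from 7.97 ± 0.659 to 35.3 ± 1.31 CPM (SD, n = 2 each), a ratio of 4.43, and the log2 difference of 2.02 was the largest of the 6 on that scale. Peg3 was also the only one of the 6 that was lower in Ctrl 2 than in Ctrl 1.

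Sfrp5, the WNT-binding protein, was at 75.3 CPM in Ctrl 1, 119 in Ctrl 2, 278 in WC1 1 and 352 in WC1 2. Its Ctrl libraries differed more from each other than those of any other gene of the 6, by 0.66 on the log2 scale. The groups nevertheless did not overlap, with a ratio of means of 3.24 and a range of 2.33 to 4.67 over single libraries. The log2 difference was 1.71.

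Bmp3 and Npr3, the ligand and the clearance receptor, had the smallest steps. Bmp3 had 19.3 and 19.8 CPM in Ctrl against 42.0 and 45.5 CPM in WC1, a ratio of 2.23 and a log2 difference of 1.12. Npr3 was at 439 CPM in Ctrl 1, 506 in Ctrl 2, 895 in WC1 1 and 1122 in WC1 2, a ratio of 2.13 and a log2 difference of 1.09. Bmp3 was the tighter of the pair on the log2 scale, with an SD of 0.027 in Ctrl and 0.080 in WC1. The SD of Npr3 was 0.144 in Ctrl and 0.231 in WC1, and its single libraries gave ratios from 1.77 to 2.56.

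The plot of levels by library shows the common pattern. All 6 genes were higher in both WC1 libraries than in both Ctrl libraries, which also held for 32.7% of the 14106 tested genes. All 6 also exceeded a 2-fold difference on the log2(CPM + 1) scale without overlap, which held for 2.67% of tested genes. Both counts follow from the way the genes were chosen and nothing is read from them. The differences lay between the 98.2 percentile (Npr3) and the 99.9 percentile (Klf14 and Peg3) of all tested genes, whose median difference was -0.02.

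Per length, the order of the genes in Ctrl was Mest (217 ± 28.7 TPM), Npr3 (131 ± 14.0), Sfrp5 (98.5 ± 32.1), Bmp3 (12.1 ± 0.322), Peg3 (2.31 ± 0.174) and Klf14 (1.01 ± 0.256, SD, n = 2 each). In WC1 Mest stood at 694 ± 80.1 TPM, Sfrp5 at 352 ± 65.7, Npr3 at 309 ± 56.1, Bmp3 at 29.8 ± 2.37, Peg3 at 11.3 ± 0.675 and Klf14 at 6.11 ± 1.11. Sfrp5 and Npr3 thus changed places, with Npr3 the higher of the pair in both Ctrl libraries and Sfrp5 the higher in both WC1 libraries. Between libraries their levels overlapped in WC1, at 305 and 398 TPM for Sfrp5 and 269 and 349 for Npr3, and in Ctrl the higher Sfrp5 library almost reached the lower Npr3 library. All other neighbours in either order were separated in every library.

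Between libraries of one group the genes differed by unequal amounts. Library 2 was above library 1 in both groups for 5 of the 6 genes, a pattern held by 27.6% of tested genes, and the exception was Peg3 in Ctrl. Within WC1 the log2 difference between the libraries was 0.34 for Sfrp5, 0.33 for Npr3, 0.29 for Klf14, 0.19 for Mest, 0.11 for Bmp3 and 0.07 for Peg3. The same order of libraries held for 14 of 16 adipocyte markers and 6 of 8 endothelial markers.

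The genes whose 4 library values ran closest to each member were found by the root mean square distance of log2(CPM + 1) values centred on their own mean, over 4 libraries and 12567 candidate genes. Closest to Mest were Cntn2 (0.09), Sez6l (0.09), Pcdh1 (0.10), Acss3 (0.10) and Tenm4 (0.11). Near Klf14 were Cldn5 (0.07) and Bcl6b (0.09), and closest to Sfrp5 were Gpr50 (0.11), Bcl6b (0.12) and Kcnh2 (0.13). Bcl6b thus stood near both. Bmp3 had Myct1, Vnn3 and Snhg11 near it, each at 0.03. Npr3 had the nearest companions of all, Egfl7 (0.0095), Rtn2 (0.014) and Lhx6 (0.015). Closest to Peg3 were Urgcp (0.10), Per3 (0.13) and Pex2 (0.19). Among the 6 themselves, Bmp3 and Npr3 were closest (0.10), Mest and Klf14 were 0.19 apart, and Npr3 and Peg3 were farthest apart (0.49). All distances were taken over the same 4 libraries and their 2 groups, so a like step between the groups by itself brings genes close.

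The tissue held the cell types its label implies. All 16 adipocyte markers were tested, 11 were called higher in WC1 and none lower, none was at 0, and their summed level was 22881 and 25632 TPM in Ctrl and 43872 and 59095 TPM in WC1. Endothelial markers went the same way, with 6 of 8 called higher and sums of 243 and 279 TPM in Ctrl against 528 and 702 in WC1. Of 14 macrophage markers 6 were called lower and none higher, and the sum went from 21214 and 19580 TPM to 13336 and 9675. Of 13 tested markers of adipose progenitors, out of 14 listed, 6 were called lower and none higher, with sums of 5465 and 5437 TPM in Ctrl and 4901 and 4098 in WC1. None of 8 mesothelial markers was called, although their sum differed within WC1, at 65.5 and 183 TPM, and was 115 and 86.7 in Ctrl. That list turned on single WC1 libraries, with 5 markers called higher and a median of 0.74 without WC1 1, and 3 called lower and a median of -0.59 without WC1 2. No epididymis marker passed the filter and 6 of 8 were at 0 in every library. Of 6 skeletal muscle markers 1, Acta1, was tested and called higher, and their sum lay between 8.83 and 25.7 TPM. Without a filter on low values, 1 adipocyte marker was called higher and 2 macrophage markers lower. DESeq2 called 11 macrophage markers lower and 1 higher. Cd163 was the only macrophage marker with both WC1 libraries above both Ctrl libraries. Leaving out either Ctrl library left no marker of the adipocyte, endothelial, macrophage or progenitor lists called. In bulk tissue, fewer cells of a type and less RNA per cell cannot be told apart.

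Because adipocyte markers moved with the 6 genes, each gene was also expressed relative to the mean log2(CPM + 1) of the 16 adipocyte markers, a scale chosen after the data were seen. The markers themselves were 1.02 higher in WC1 on the log2 scale. Single markers ranged from 0.18 (Cebpa) to 1.66 (Cfd) around that mean. The differences of Mest (1.53), Bmp3 (1.12) and Npr3 (1.09) before subtraction lay within this range. Those of Sfrp5 (1.71), Klf14 (1.89) and Peg3 (2.02) lay above it. On this relative scale Peg3 was 1.0 higher in WC1, Klf14 0.88, Sfrp5 0.70 and Mest 0.52, and the groups still did not overlap for these 4 genes, which held in this direction for 1.15% of tested genes. Bmp3 was 0.10 higher and Npr3 0.07 higher, with overlapping groups, so their steps were of the size of the marker step. Relative to the 8 endothelial markers, which were 0.97 higher in WC1, the differences were 1.05 for Peg3, 0.93 for Klf14, 0.74 for Sfrp5, 0.56 for Mest, 0.15 for Bmp3 and 0.12 for Npr3, and none of the 6 overlapped, which held for 1.43% of tested genes. Since the genes were chosen for their step between the groups, nothing is read from these shares either. The part that cell composition had in these steps was not tested.

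**Figure D1:**
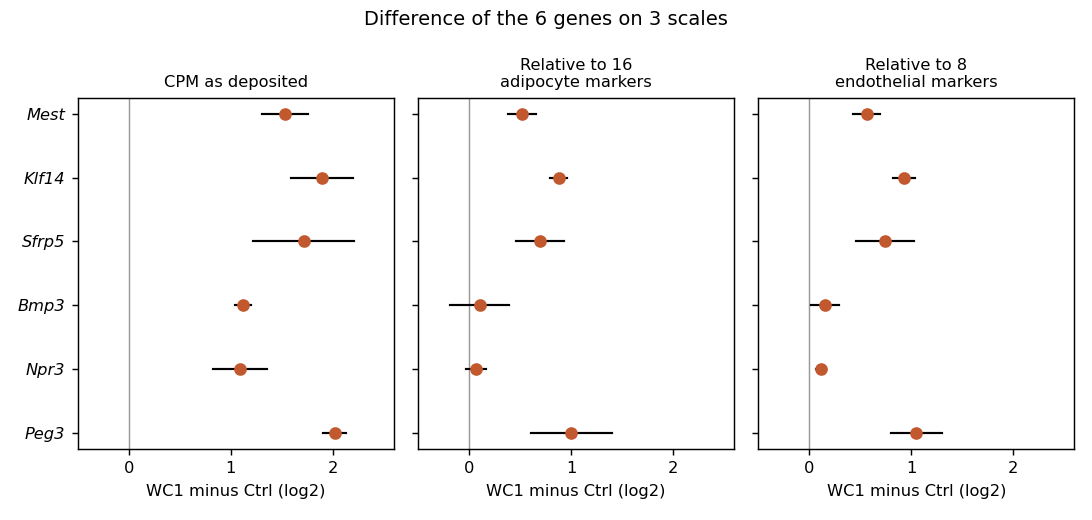
Difference of each gene, WC1 minus Ctrl on the log2 scale, in log2(CPM + 1), relative to 16 adipocyte markers and relative to 8 endothelial markers. Points are differences of means, and bars run from the lowest WC1 library minus the highest Ctrl library to the highest WC1 minus the lowest Ctrl, and only Bmp3 (0.10) and Npr3 (0.07) reach 0, relative to adipocyte markers.

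The plot of differences on the 3 scales shows Peg3, Klf14, Sfrp5 and Mest clear of 0 on each scale, while Bmp3 and Npr3 fall to near 0 once the marker mean is subtracted.

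The question of whether the step at Mest and Klf14 extended along chromosome 6 was addressed with 14 other genes of the region, which lie before Mest, between it and Klf14 or past Klf14. Of these, 9 were tested, 2 were called higher in WC1 and none lower, and their median difference was 0.19. Ube2h, a ubiquitin-conjugating enzyme gene, rose by 0.32 ± 0.07 (limma adjusted p = 0.0381), from 122 and 127 CPM to 153 and 157 CPM. Klhdc10 rose by 0.30 ± 0.06 (limma adjusted p = 0.0384), from 53.1 and 54.4 CPM to 66.1 and 67.0 CPM. Both calls were lost without a filter on low values, where none of the neighbours was called, and DESeq2 called 4 higher. Both steps were smaller than those of Mest and Klf14, which were chosen for their steps.

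The neighbours nearest to Mest did not follow it as a block. Copg2, a coat protein gene that overlaps Mest by 912 bases on the opposite strand, had 41.1 and 39.2 CPM in Ctrl against 42.4 and 41.9 CPM in WC1 (log2 difference 0.07 ± 0.07, limma adjusted p = 0.520). The libraries were directional, but no source used here gives the strand setting of the counting, and reads in the shared bases could be assigned to either gene. Mkln1, on the far side of Klf14, was at 53.4 and 53.9 CPM in Ctrl and 54.6 and 52.3 in WC1 (limma adjusted p = 0.965). Tsga13, between Mest and Klf14, and Cpa4 were listed at 0 in every library, and Ssmem1, Cpa5 and Cpa1 were under the filter.

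Cep41, a centrosomal protein gene upstream of Mest, was at 3.22 CPM in Ctrl 1 but at 9.46 in Ctrl 2, 13.2 in WC1 1 and 13.6 in WC1 2. Its groups did not overlap, yet the Ctrl libraries differed so much that the difference of 1.11 ± 0.43 did not pass the test (limma adjusted p = 0.128). Podxl had 28.5 and 29.9 CPM in Ctrl against 39.7 and 58.6 CPM in WC1, a difference of 0.71 ± 0.19 that did not pass either (limma adjusted p = 0.0602). Tmem209 (0.19 ± 0.07, limma adjusted p = 0.134), Nrf1 (-0.05 ± 0.08, limma adjusted p = 0.653) and Zc3hc1 (-0.08 ± 0.10, limma adjusted p = 0.561) did not pass the test. The microRNA gene Mir335 lies inside an intron of Mest. In these poly(A) libraries it was at 0 in both Ctrl libraries and at 1 read in each WC1 library, under the 3-read floor, so its level was not detectable at this depth.

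**Figure D2:**
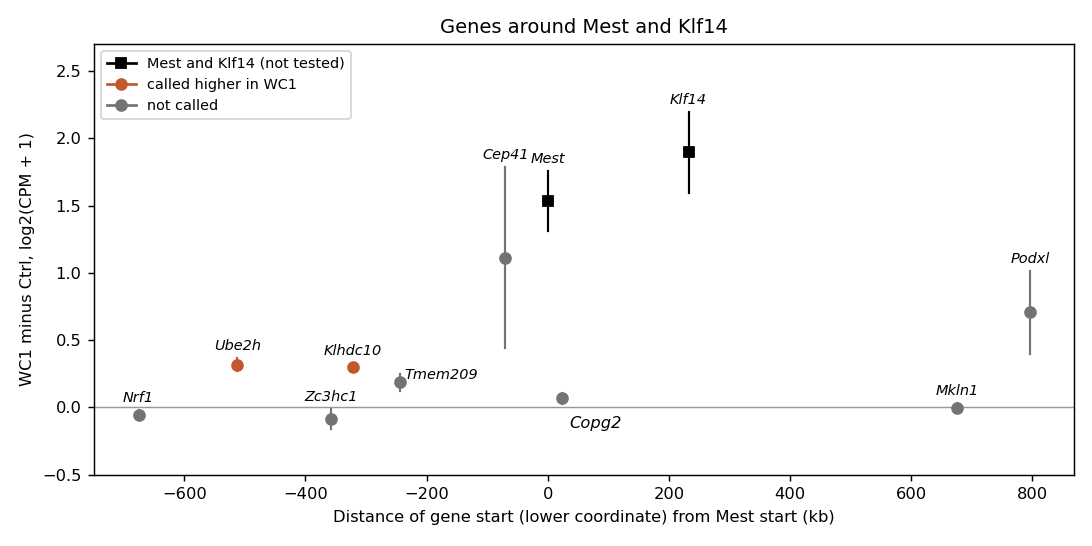
Difference in log2(CPM + 1), WC1 minus Ctrl, of Mest, Klf14 and the tested neighbours against the distance of each gene start from the start of Mest (kb). Bars run from the lowest WC1 library minus the highest Ctrl library to the highest WC1 minus the lowest Ctrl. The differences of means of Mest (1.53) and Klf14 (1.89), chosen for their step, are above those of Copg2 (0.07) and the other neighbours. The bar of Cep41 (0.44 to 1.79) overlaps that of Mest (1.31 to 1.75).

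The plot along the locus places the largest differences at Mest and Klf14, with near-zero values at Copg2, which adjoins Mest, and at the more distant Mkln1 past Klf14. Since Mest and Klf14 were chosen for their step, nothing is read from their rank above the neighbours. Cep41 has the longest bar, from its Ctrl libraries that lay apart.

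Imprinted genes outside this locus were then examined, since Mest, Klf14 and Peg3 are all imprinted. Of 43 listed, 37 were tested, 5 were called higher and 4 lower, and the median difference was 0.15. The shares of calls were near those over all genes in the same fit. The count depended on the setting, with 10 called higher by DESeq2, and with 3 higher and 1 lower without a filter on low values. Of the 5 genes called higher, Peg10, a retrotransposon-derived gene, had 17.2 and 15.7 CPM in Ctrl against 36.7 and 34.6 CPM in WC1 (1.08 ± 0.09, limma adjusted p = 0.0103). Nnat, the neuronatin gene, rose from 105 and 131 CPM to 214 and 272 CPM (1.03 ± 0.16, limma adjusted p = 0.0236). Plagl1, a zinc finger transcription factor gene, rose by 0.97 ± 0.18 (limma adjusted p = 0.0306), and Igf2, the growth factor gene, by 0.75 ± 0.12 (limma adjusted p = 0.0253). The remaining gene called higher, Ppp1r9a, named after its value was seen, rose by 0.65 ± 0.14 (limma adjusted p = 0.0377). The calls of Plagl1, Igf2 and Ppp1r9a were lost without the filter.

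Imprinted genes that fell were led by Cdkn1c, the maternally expressed cell cycle inhibitor, which had 61.9 and 58.3 CPM in Ctrl against 27.6 and 15.6 CPM in WC1 (-1.49 ± 0.26, limma adjusted p = 0.0271). Ascl2 (-0.78 ± 0.15, limma adjusted p = 0.0341), Slc22a18 (-0.72 ± 0.15, limma adjusted p = 0.0375) and Dcn (-0.60 ± 0.13, limma adjusted p = 0.0383) fell as well. Ascl2 had 0.746 and 1.11 CPM in Ctrl against 0.131 and 0.111 CPM in WC1, so it passed the filter only through Ctrl, where it was high. Of these 4 falls, those of Cdkn1c, Slc22a18 and Dcn were no longer called without the filter. Dcn, the decorin gene, is also one of the adipose progenitor markers called lower. Zim1, the imprinted neighbour of Peg3, had 0.263 and 0.0919 CPM in Ctrl against 0.737 and 0.699 CPM in WC1, which did not pass the test (limma adjusted p = 0.0583), and Usp29, which is also next to Peg3, was listed at 0 in every library. H19, the maternally expressed partner of Igf2, had overlapping groups (-0.20 ± 0.37, limma adjusted p = 0.709), and Dlk1 was under the filter in all 4 libraries.

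The WNT pathway list, which holds the ligands and receptors that Sfrp5 could meet, had 34 of 40 genes tested, with 10 called higher, 4 called lower and a median of 0.28. In TPM 9 were called higher and 1 lower, and the calls of Fzd7, Fzd1 and Dkk3, described next, were lost (that of Fzd7 by edgeR as well). Without a filter on low values 6 were called higher and 1 lower, and Sfrp4 also lost its call. Among ligands, Wnt10b had 0.132 and 0.414 CPM in Ctrl against 1.74 and 1.75 CPM in WC1 (1.12 ± 0.16, limma adjusted p = 0.0202). It passed the filter of 0.5 CPM only through WC1, where it was high, and its call was kept without the filter. Wnt5a, a ligand that Sfrp5 is known to bind, rose from 11.4 and 12.3 CPM to 21.8 and 27.2 CPM (0.98 ± 0.13, limma adjusted p = 0.0181). Of the receptors, Fzd4 rose from 61.2 and 58.1 CPM to 125 and 128 CPM (1.07 ± 0.07, limma adjusted p = 0.00664), and Fzd7 (-0.65 ± 0.16, limma adjusted p = 0.0493) and Fzd1 (-0.45 ± 0.10, limma adjusted p = 0.0395) fell. Nkd1, an intracellular inhibitor that WNT signalling itself induces, rose from 20.5 and 23.1 CPM to 47.4 and 61.0 CPM (1.27 ± 0.14, limma adjusted p = 0.0145).

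The secreted WNT-binding relatives of Sfrp5 did not move as one. Frzb fell from 5.95 and 4.09 CPM to 0.639 and 0.461 CPM (-1.94 ± 0.19, limma adjusted p = 0.0132), the opposite direction to Sfrp5. Sfrp4 rose from 16.2 and 16.9 CPM to 32.7 and 24.0 CPM (0.72 ± 0.16, limma adjusted p = 0.0404). Sfrp2 had 24.4 and 29.5 CPM in Ctrl against 11.7 and 17.9 CPM in WC1, short of the threshold (limma adjusted p = 0.0549), and Sfrp1 overlapped between the groups (limma adjusted p = 0.880). Dkk3, a secreted protein of the Dickkopf family, fell as well (-0.47 ± 0.10, limma adjusted p = 0.0390).

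The BMP pathway list, around Bmp3, had 33 of 37 genes tested, with 10 called higher, 2 called lower and a median of 0.40. Without a filter on low values 6 were called higher and 1 lower, and the calls of Acvr1c and Bmp2, given next, were lost. Among the ligands, Bmp7 rose from 0.643 and 0.506 CPM to 2.57 and 1.84 CPM (1.02 ± 0.16, limma adjusted p = 0.0241) and Bmp2 from 4.69 and 4.76 CPM to 7.29 and 7.70 CPM (0.57 ± 0.10, limma adjusted p = 0.0290). Bmp4 had 4.55 and 4.25 CPM in Ctrl against 5.08 and 7.39 CPM in WC1 and did not pass (limma adjusted p = 0.173), and Gdf10, the closest relative of Bmp3, was at 17.7 and 22.4 CPM in Ctrl and 22.8 and 24.4 in WC1 (limma adjusted p = 0.255). Inhbb, an activin subunit gene, rose from 42.3 and 46.3 CPM to 83.5 and 78.4 CPM (0.86 ± 0.08, limma adjusted p = 0.0123). Acvr1c, the ALK7 receptor of adipocytes, rose by 1.03 ± 0.18 (limma adjusted p = 0.0271), whereas Acvr2b, an activin receptor that Bmp3 is known to bind, stayed under 1 CPM and was not called (limma adjusted p = 0.163). The inhibitory Smad6 rose by 0.86 ± 0.09 (limma adjusted p = 0.0138). Bmper, a secreted BMP-binding protein, fell from 109 and 96.4 CPM to 43.6 and 29.8 CPM (-1.48 ± 0.19, limma adjusted p = 0.0175), and the BMP-responsive Id genes were split. Id2 fell (-0.79 ± 0.16, limma adjusted p = 0.0378), a call lost in TPM and without a filter on low values. Id3 rose (0.62 ± 0.08, limma adjusted p = 0.0175), and Id1 was higher in both WC1 libraries without passing the test (0.66 ± 0.18, limma adjusted p = 0.0636). Id3 and Id1 were named after their values were seen.

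The natriuretic peptide list, around Npr3, had 9 of 15 genes tested, with 5 called higher, none lower and a median of 0.42. The peptide gene Nppa and the protease gene Corin were listed at 0 in every library, so their RNA was not detectable at this depth. Nppb was at 0 except for 0.0460 CPM in Ctrl 2, just above the 3-read floor of 0.0345 CPM in that library, and Nppc was at 0 except for 0.0477 CPM in WC1 2, at the floor of that library. The signalling receptors were expressed. Npr1 rose from 64.4 and 68.2 CPM to 87.4 and 91.2 CPM (0.42 ± 0.07, limma adjusted p = 0.0249), and Npr2 from 28.1 and 33.5 CPM to 54.9 and 68.6 CPM (0.98 ± 0.14, limma adjusted p = 0.0209). Mme, the peptide-degrading enzyme neprilysin, rose from 37.7 and 41.1 CPM to 84.9 and 92.5 CPM (1.15 ± 0.08, limma adjusted p = 0.00878). The phosphodiesterases Pde9a (0.76 ± 0.12, limma adjusted p = 0.0228) and Pde3b (0.70 ± 0.09, limma adjusted p = 0.0184) rose too. Per length, Npr3 stood above both signalling receptors in every library, at 121 to 141 TPM in Ctrl against 30.3 to 32.4 for Npr1 and 14.7 to 17.7 for Npr2.

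The KLF family list had 12 of 16 genes tested, and in the main limma fit the direction of Klf14 was not shared by any other member called. None was called higher and 4 were called lower, Klf2 (-0.62 ± 0.09, limma adjusted p = 0.0213), Klf6 (-0.41 ± 0.08, limma adjusted p = 0.0338), Klf9 (-0.39 ± 0.08, limma adjusted p = 0.0364) and Klf13 (-0.37 ± 0.07, limma adjusted p = 0.0320). The calls of Klf6 and Klf9 were lost without a filter on low values. The list median was -0.12. In TPM this median was 0.00, and 1 gene was called higher and 1 lower. An unadjusted p under 0.05 in limma was reached by 6 of the 12, beside 37.8% of tested genes, and DESeq2 and edgeR each called 1 gene higher and 4 lower.

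**Figure D3:**
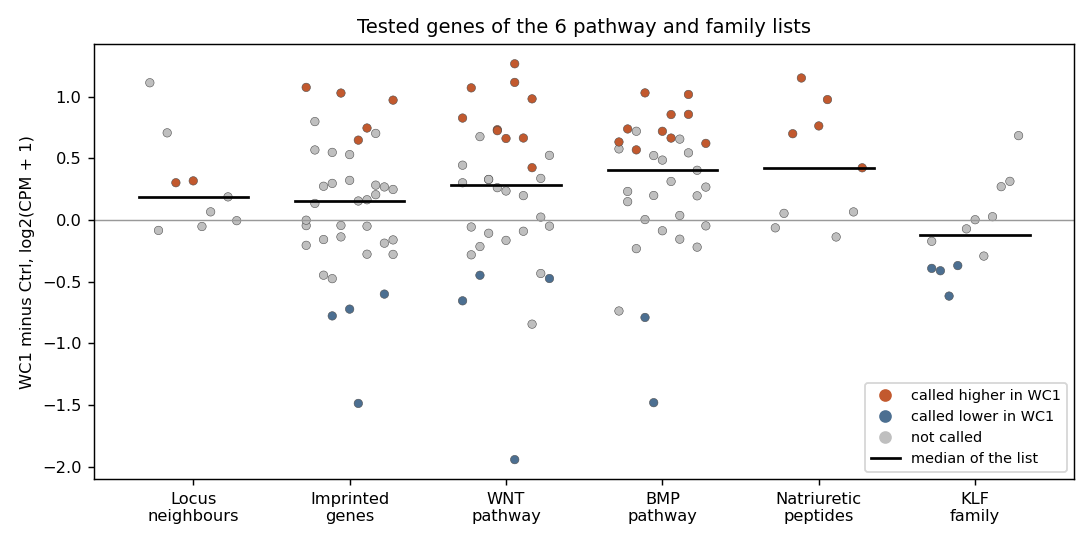
Difference in log2(CPM + 1), WC1 minus Ctrl, of each tested gene of the 6 lists, coloured by whether it was called higher, lower or not called, with a black line at the list median. The medians run from -0.12 (KLF family) to 0.42 (natriuretic peptide system), beside -0.02 over all tested genes.

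The plot of the 6 lists shows called genes on both sides of 0 in the imprinted, WNT and BMP lists, and only higher calls among the natriuretic and locus genes.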

How the data were processed

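Poly(A) RNA of epididymal adipose tissue was made into directional libraries, and 4 were analysed, 2 per group, grouped by their titles. The submitters' processing notes name fastp, HISAT2, StringTie and mm10, and no source used here gives the annotation or strand setting of the counting. The authors deposited 2 gene matrices of 24421 symbols. The deposited signal called CPM is reads divided by a rescaled library size, since its columns summed to 97.6% to 105% of the plain CPM total, and 100% of its values were whole multiples of 1 read within 0.01 read. The TPM values were deposited by the authors as length-corrected reads scaled to the same sum. The 6 genes and all lists were chosen with earlier results of these data known.

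A gene was kept if 2 or more libraries held it at 0.5 CPM or above (14106 kept, 10315 removed) and log2(CPM + 1) was tested with limma 3.58.1 in R 4.3.3 (trend, moderated variance, two-sided), and p was adjusted by Benjamini-Hochberg over every gene kept. Errors after ± are SD for levels and SE for list-gene differences. An exact permutation test of 1 gene cannot go below p = 0.333 here. On simulated data for WC1 minus Ctrl over 14106 genes with 200 changed, limma recovered 68 of 100 genes changed 2-fold and 91 of 100 changed 4-fold, with 11 false calls. In the real data 2531 genes were called, so the setting differs and these rates do not give the power of the tests here. Named genes were the 6 members, the tested locus neighbours, up to 4 genes with the largest rise and up to 4 with the largest fall among called genes of each list, a set of direct partners chosen by name, and the nearest genes by distance. Alternatives were TPM, median-of-ratios scaling, pseudocounts of 0.5 and 0.1, other filters, edgeR 4.0.16 and DESeq2 1.42.0 on the recovered reads, the replicate number as a block, and each library left out. Promoter windows were read from RefSeq. Some genes that these rules would name are not reported here.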

Additional observations from a re-analysis of the deposited data

How the results depend on the processing

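Over all tested genes, 1443 were called higher and 1088 lower. Without a filter on low values these were 788 and 532, in TPM 2054 and 583, and by DESeq2 on recovered reads 2125 and 1736. TPM moved the median difference of all genes by 0.12, to 0.10. Leaving out 1 library gave between 2 and 2424 genes higher and between 4 and 2748 lower, with 2 higher without Ctrl 1, 6 higher without Ctrl 2 and 2424 higher without WC1 1. With the replicate block 1769 were higher and 1497 lower. The replicate numbers share only a number (r = 0.194 over 14106 genes between the library differences of the 2 groups). The block raised the number of imprinted genes called higher from 5 to 8. The cause of these changes was not tested.

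All 6 genes kept their direction in every alternative. Klf14 was at 2.13 with a pseudocount of 0.5, 2.38 with 0.1 and 2.46 by edgeR and by DESeq2. Bmp3 was at 1.23 in TPM. Peg3 was at 1.89 in TPM, 2.14 with a pseudocount of 0.1 and 2.17 by edgeR and by DESeq2. Relative to adipocyte markers, a scale chosen after seeing the data, the differences were 0.52 (Mest), 0.88 (Klf14), 0.70 (Sfrp5), 0.10 (Bmp3), 0.071 (Npr3) and 1.0 (Peg3), and relative to endothelial markers 0.56, 0.93, 0.74, 0.15, 0.12 and 1.05. With 1 library left out the differences ran from 1.40 to 1.66 for Mest, 1.74 to 2.05 for Klf14, 1.38 to 2.04 for Sfrp5, 1.06 to 1.18 for Bmp3, 0.92 to 1.25 for Npr3 and 1.94 to 2.09 for Peg3. Of 46 called list genes, 21 kept their call in all 9 alternatives with every library, 23 lost it without a filter, and none changed sign. The number of libraries, 2 per group, limits the precision of all these values.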

Other observations

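The ratio of CPM to TPM gives the transcript length that the authors' processing implied for a gene in each library. This ratio, taken relative to its library median, varied by under 1% across the 4 libraries for 86.3% of 13237 genes, and by at most 0.464% for the 6 genes described here. It varied by 31.8% for Cep41, between 0.855 in Ctrl 1 and 1.13 in WC1 2. Ctrl 1 was also the library in which Cep41 was lowest.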
